A study of Homo sapiens with 6 samples.

Results

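Golgi N-glycan branching enzymes are the glycosidases and transferases that turn a trimmed mannose-rich N-glycan into a branched complex one. The set comprised 10 genes, picked by function and found by gene name: MGAT1, MGAT2, MGAT3, MGAT4A, MGAT4B, MGAT5, MAN2A1, MAN2A2, FUT8 and B4GALT1. All 10 were among the 58735 genes of the deposited count table, 9 had enough counts to be tested, and MGAT3 did not. The cells were ES2, an established human ovarian cancer line labelled as high-grade serous carcinoma. In 3 libraries the cells had been transfected with siRNAs against UAP1 (siUAP1, labelled UAP1 knockdown), and in 3 others with a control siRNA (control, labelled WT). The labels name a pair of UAP1 siRNAs and do not say whether they were pooled, so effects of 1 siRNA on other transcripts cannot be told apart from those of losing UAP1. RNA was taken 48 hours after transfection, the medium having been replaced after 6 hours, and all libraries came from the same line.

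The enzymes work in order along the Golgi. MGAT1 adds the first N-acetylglucosamine (GlcNAc) to the trimmed glycan, the mannosidases MAN2A1 and MAN2A2 then clear mannose from the other arm, and MGAT2 adds the second GlcNAc there. MGAT4A or MGAT4B add a further branch to the arm of MGAT1 and MGAT5 one to the arm of MGAT2, MGAT3 adds a bisecting GlcNAc that hinders further branching, FUT8 puts a fucose on the core, and B4GALT1 adds galactose to the branches. The MGAT enzymes all take GlcNAc from UDP-GlcNAc, which UAP1 makes, and MGAT4 and MGAT5 enzymes are known for a weaker affinity for that donor than MGAT1. Branches made by MGAT5 and then elongated are ligands of galectins, and MGAT5 and FUT8 are well studied in carcinoma.

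Libraries held 21267240 to 25972582 counts. UAP1 itself was at 21.8, 23.3 and 25.2 CPM (counts scaled to library size) in siUAP1 libraries, against 345, 357 and 444 CPM in control libraries, a log2 fold change of -4.03 (SE 0.136, edgeR adjusted p = 6.12e-06). Of the markers usually sought in high-grade serous carcinoma, MUC16 had 0 counts in all libraries, EPCAM and CDH1 had 6 and 1 counts over the 6 libraries, and PAX8 and WT1 reached at most 2.51 and 2.46 CPM. KRT7, KRT8 and KRT18 were between 124 and 650 CPM and VIM and FN1 between 1417 and 2839 CPM. Leukocyte, erythroid and keratinocyte markers summed to at most 0.628 CPM in any library. Of the endothelial markers, CDH5 was between 130 and 171 CPM, and PECAM1 and VWF reached at most 2.85 and 1.67 CPM. In bulk RNA, fewer cells of a type and less RNA per cell cannot be told apart. Whether replicates came from separate cultures is not labelled, and the spread behind the p-values may therefore be technical.

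The 10 genes differed widely in level in ES2 cells. Levels between genes are compared per length, in the deposited FPKM (counts per kilobase of gene, scaled to library size). In siUAP1 libraries MGAT4B averaged 33.7 FPKM, FUT8 29.03 FPKM and B4GALT1 24.4 FPKM. In control libraries MGAT4B averaged 31.3 FPKM, FUT8 26.5 FPKM and B4GALT1 18.3 FPKM. These 3 genes took the first 3 places by FPKM in every library. The length used takes in all annotated exonic bases of a gene, and the order depends on it. Without division by length, B4GALT1 averaged 120.9 CPM in siUAP1 and 90.3 CPM in control libraries. That was below MGAT5 (144.5 and 124.6 CPM) and MAN2A1 (153.7 and 136.9 CPM). MGAT4B and FUT8 changed places between libraries, as did FUT8 and B4GALT1, so the place of FUT8 did not exceed the spread. MGAT4B was above B4GALT1 in all 6 libraries. MGAT5, MAN2A1, MGAT1, MAN2A2, MGAT2, MGAT4A and MGAT3 followed in this order, each at the same place in all 6 libraries. In siUAP1 libraries they averaged 16.7 FPKM (MGAT5), 12.9 FPKM (MAN2A1), 9.34 FPKM (MGAT1), 3.40 FPKM (MAN2A2), 0.889 FPKM (MGAT2), 0.0778 FPKM (MGAT4A) and 0.0175 FPKM (MGAT3). In control libraries they averaged 14.4 FPKM (MGAT5), 11.5 FPKM (MAN2A1), 8.60 FPKM (MGAT1), 2.75 FPKM (MAN2A2), 0.704 FPKM (MGAT2), 0.101 FPKM (MGAT4A) and 0.00249 FPKM (MGAT3).

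**Figure D1:**
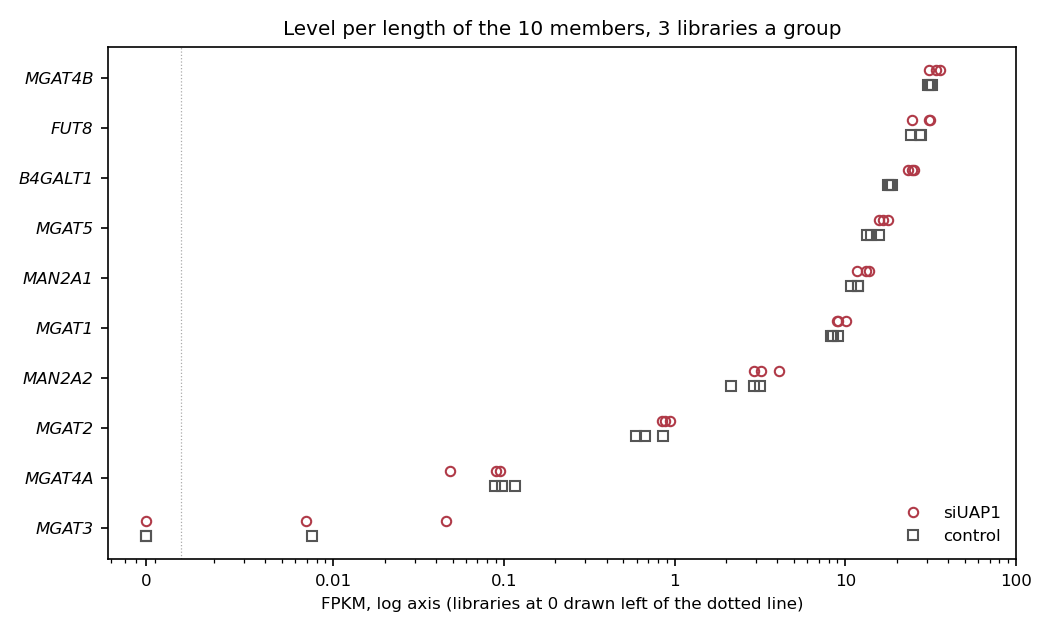
FPKM (deposited by the authors, log axis) of the 10 genes in each siUAP1 library (circles) and control library (squares), ordered by mean. MGAT4B, FUT8 and B4GALT1 lead, MGAT4A averages 0.0778 FPKM in siUAP1 and 0.101 FPKM in control libraries, and MGAT3 is at 0 in 1 siUAP1 and 2 control libraries.

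MGAT2 (ENSG00000168282, chromosome 14, 49620795 to 49623481, plus strand) had 57, 60 and 65 counts in siUAP1 libraries and 49, 41 and 44 counts in control libraries. The annotation places an antisense gene, AL139099.1, across it on the opposite strand, and 2469 of the 2687 exonic bases of MGAT2 (91.9%) are also exonic in AL139099.1. That antisense gene had 0 counts in all 6 libraries. Over all its exonic bases MGAT2 had 15.3 to 24.2 counts per kilobase per library. Where reads fell within MGAT2 is not recorded in a table of counts per gene. The counting program and its use of strand are unstated in the sources used here, and the part of the shared bases in the low MGAT2 count was not tested. The place of MGAT2 in the order of levels is therefore uncertain. Of the other members, FUT8 shared 12.3% of its exonic bases (with FUT8-AS1, 3.60 CPM on average), MAN2A2 7.95% (with AC068831.4, 0 counts in every library), and the remaining 7 at most 3.41%.

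With siUAP1, the called differences among the branching enzymes were all rises, and all were small. In a comparison within replicate numbers, 4 of the 9 tested genes rose (B4GALT1, MGAT5, MAN2A1 and MAN2A2), 0 fell and 5 were not called. In that fit 16.2% of all tested genes were called, 9.07% rising and 7.14% falling. The median log2 fold change of the 9 genes was 0.165, and that of all tested genes -0.00295. In the comparison of the groups alone, which ignores the numbers, edgeR called 0 of the 9, where 0.108% of all tested genes were called (0.0317% rose and 0.0761% fell), and 1 (B4GALT1) had an unadjusted p under 0.05. Without the numbers, DESeq2 called 1 (B4GALT1, adjusted p = 0.0491) and limma-voom called 0. Over the 17 fits without the numbers the adjusted p of B4GALT1 ran from that value to 0.596. The replicate numbers were taken to pair the libraries because libraries with the same number deviated together from their group means. From here on, rose, fell and adjusted p refer to the edgeR fit with the number as a block (3 pairs, Benjamini-Hochberg adjustment over all 15768 genes tested), unless the groups alone are named.

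**Figure D2:**
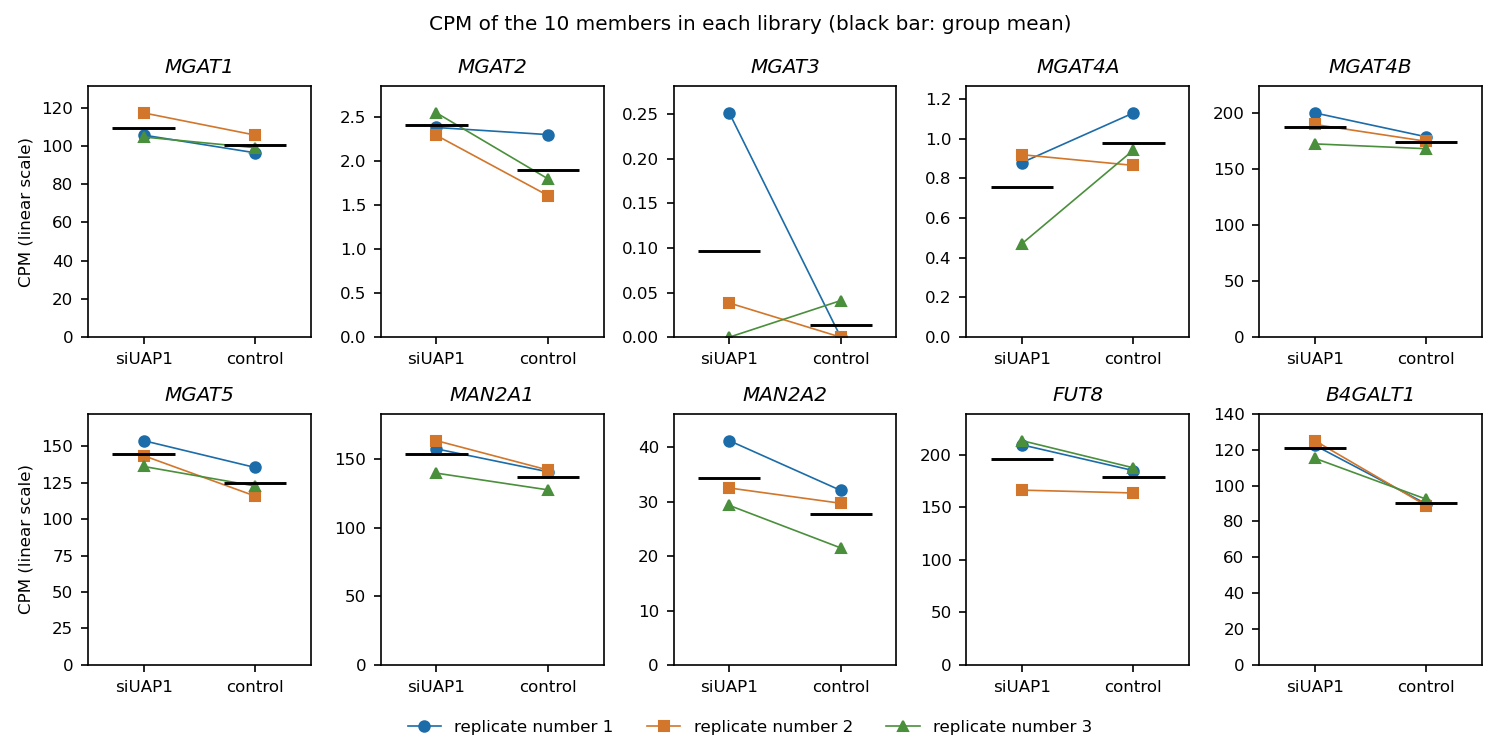
CPM (linear axes from 0) of each of the 10 genes in the siUAP1 and control libraries, with lines joining libraries of the same replicate number and black bars at group means. B4GALT1 and MGAT5 are the genes whose groups do not overlap, and MGAT4A and MGAT3 are the genes in which the lines do not all run 1 way.

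MGAT1 (ENSG00000131446, chromosome 5, 180784782 to 180815652, minus strand), the gene of the entry step, was at 106, 117 and 105 CPM in siUAP1 libraries 1 to 3, against 96.4, 106 and 99.1 CPM in control libraries 1 to 3. The groups overlapped slightly, and each siUAP1 library was above its control partner by 5.7% to 10.9%. MGAT1 was not called (log2 fold change 0.12, SE 0.0491, adjusted p = 0.102, and 0.923 for the groups alone). Its 3 control libraries differed among themselves by 1.10-fold, more than the fitted 1.09-fold difference between groups.

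The mannosidases that act next both rose. MAN2A1 (ENSG00000112893, chromosome 5, 109689366 to 109869625, plus strand), Golgi alpha-mannosidase II, was at 158, 164 and 140 CPM in siUAP1 libraries and 141, 142 and 128 CPM in control libraries. Library 3 was the lowest of each group, and the groups overlapped although siUAP1 was higher within every number (log2 fold change 0.17, SE 0.04715, adjusted p = 0.0164, and 0.866 for the groups alone). The call ended without pair 2 (adjusted p = 0.132) or pair 3 (0.105). MAN2A2 (ENSG00000196547, chromosome 15, 90902218 to 90922584, plus strand), the related mannosidase IIx, was at 41.2, 32.5 and 29.3 CPM in siUAP1 libraries and 32.1, 29.7 and 21.5 CPM in control libraries. Library 1 was the highest and library 3 the lowest in each group, and the average of a number differed by up to 0.53 on the log2 scale between numbers, more than the 0.31 by which siUAP1 exceeded control (SE 0.0758, adjusted p = 0.00539, and 0.857 for the groups alone). Without pair 3 the rise was not called (log2 fold change 0.25, adjusted p = 0.128). With DESeq2 and the block neither mannosidase was called (adjusted p = 0.0696 for MAN2A1 and 0.0573 for MAN2A2).

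The balance of the mannosidases was compared as a ratio within each library, which no scaling affects. MAN2A1 exceeded MAN2A2 per kilobase by 3.235-, 4.26- and 4.04-fold in siUAP1 libraries and by 3.72-, 4.05- and 5.03-fold in control libraries. The groups overlapped, with a difference of -0.15 on the log2 scale (exact two-sided permutation p = 0.5, where 0.1 is the smallest that 3 against 3 allows) and differences of -0.20, 0.07 and -0.32 within numbers 1 to 3. With 3 libraries a group the permutation test could not pass 0.05 at any size of shift.

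MGAT2, the enzyme that commits a glycan to the complex type, was at 2.39, 2.30 and 2.55 CPM in siUAP1 libraries and 2.31, 1.61 and 1.80 CPM in control libraries. The siUAP1 value was higher within each number, by 3.52%, 42.5% and 41.6%, but the counts were few and the difference was not called (log2 fold change 0.35, SE 0.248, adjusted p = 0.391). MGAT3 (ENSG00000128268, chromosome 22, 39457344 to 39492194, plus strand), which makes the bisecting GlcNAc, had 6, 1 and 0 counts in siUAP1 libraries and 0, 0 and 1 counts in control libraries. A count of 0 allows up to 3 counts, or 0.115 to 0.141 CPM in these libraries, so 5 of 6 libraries were below that limit, siUAP1 replicate 1 lay above it, and no fold is given. Such limits cover counting error alone.

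Of the pair that adds a branch to the arm of MGAT1, MGAT4B was abundant and MGAT4A scarce. MGAT4B (ENSG00000161013, chromosome 5, 179797597 to 179806952, minus strand) was at 199.8, 189.5 and 172 CPM in siUAP1 libraries and 178.5, 174.5 and 168 CPM in control libraries. It was 2.55% to 11.95% higher in siUAP1 within the numbers, the groups overlapped, and it was not called (log2 fold change 0.11, SE 0.04725, adjusted p = 0.139). MGAT4A (ENSG00000071073, chromosome 2, 98619106 to 98731126, minus strand) had 21, 24 and 12 counts in siUAP1 libraries and 24, 22 and 23 counts in control libraries. Its fold change was the one negative value among the 9 tested genes (-0.39, SE 0.387, adjusted p = 0.570). That value was -0.65 without pair 2 and -0.14 without pair 3, and MGAT4A was lower in siUAP1 within numbers 1 and 3 and higher within number 2. The log2 ratio of MGAT4A to MGAT4B per kilobase was -8.64, -8.50 and -9.32 in siUAP1 libraries and -8.11, -8.47 and -8.29 in control libraries. The groups just failed to overlap, with a difference of -0.53 (exact two-sided permutation p = 0.1, the smallest possible), which was -0.28 without siUAP1 replicate 3 and -0.52, -0.03 and -1.04 within numbers 1 to 3.

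MGAT5 (ENSG00000152127, chromosome 2, 134119983 to 134454621, plus strand), which makes the branch that galectins bind once it is elongated, rose. It was at 154, 143.5 and 136 CPM in siUAP1 libraries, against 135, 116 and 123 CPM in control libraries. The lowest siUAP1 library stood just above the highest control library, and within numbers 1 to 3 MGAT5 was 13.6%, 23.9% and 10.9% higher. The log2 fold change was 0.21 (SE 0.0491, adjusted p = 0.00305, and 0.739 for the groups alone). Leaving out pair 2, which had the widest gap, ended the call (log2 fold change 0.17, adjusted p = 0.0734), while DESeq2 with the block kept it (0.0162).

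FUT8 (ENSG00000033170, chromosome 14, 65410592 to 65744121, plus strand), the core fucosyltransferase, was at 209.5, 166 and 213.5 CPM in siUAP1 libraries and 185, 164 and 188 CPM in control libraries. Number 2 was low in each group. The difference was 13.25% and 13.8% within numbers 1 and 3 but 1.64% within number 2, and FUT8 was not called (log2 fold change 0.13, SE 0.0484, adjusted p = 0.0695). Without pair 2 it was called (0.18, adjusted p = 0.0371).

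B4GALT1 (ENSG00000086062, chromosome 9, 33104082 to 33167356, minus strand), which caps the branches with galactose, had the largest fold change of the 9. It was at 122, 125 and 115 CPM in siUAP1 libraries, against 89.7, 88.8 and 92.4 CPM in control libraries. The groups stood well apart, each with little spread (121 ± 5.11 CPM in siUAP1 and 90.3 ± 1.85 CPM in control libraries, SD, n = 3 each), and the averages of the 3 numbers differed by 0.03 on the log2 scale. B4GALT1 was 36.5%, 40.8% and 24.7% higher within numbers 1 to 3, a 1.34-fold rise (log2 fold change 0.42, SE 0.0511, adjusted p = 1.4e-06). It was called in all 7 fits with the block (adjusted p between 1.01e-09 and 0.000378), whichever pair was left out. For the groups alone the same fold change had SE 0.086 and edgeR adjusted p = 0.177.

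**Figure D3:**
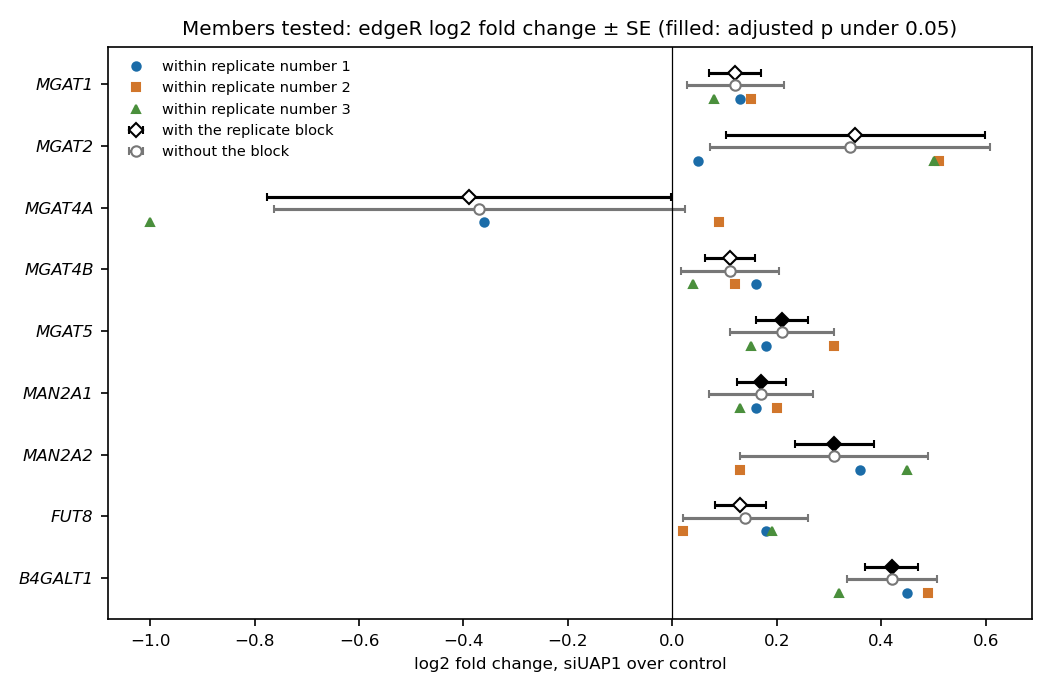
Log2 fold change of siUAP1 over control for the 9 tested genes, with the replicate block (diamonds) and for the groups alone (circles), each ± SE, and the difference within each replicate number (small coloured symbols). Estimates of the fits nearly coincide while the SE is wider without the block, and the filled symbols are B4GALT1, MGAT5, MAN2A2 and MAN2A1.

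The promoters of the 4 genes called with the block are shown to set the composition of their start regions side by side, and no binding or chromatin was measured here. Each runs from 250 bases before to 50 after a RefSeq start (RefSeq, build GRCh38.p14). Among several starts of a gene, the one nearest to the start in the deposited table was taken, and 8 of the 10 genes had an entry. B4GALT1 and MGAT5 have 2 starts each, MAN2A1 1 and MAN2A2 4, and windows of the other starts are not shown. Which start ES2 cells use was not measured. Positions are chr9:33167287-33167586 (minus strand), chr2:134119685-134119984 (plus), chr5:109689677-109689976 (plus) and chr15:90902132-90902431 (plus). Capitals mark each GC box, the letters GGGCGG on either strand, to which SP1-family factors bind.
B4GALT1: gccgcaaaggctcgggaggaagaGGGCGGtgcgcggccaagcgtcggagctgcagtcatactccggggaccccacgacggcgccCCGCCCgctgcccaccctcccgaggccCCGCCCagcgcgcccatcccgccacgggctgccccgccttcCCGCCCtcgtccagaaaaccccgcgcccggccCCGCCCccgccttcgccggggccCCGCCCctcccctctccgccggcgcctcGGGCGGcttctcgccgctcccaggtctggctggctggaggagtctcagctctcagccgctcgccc
MGAT5: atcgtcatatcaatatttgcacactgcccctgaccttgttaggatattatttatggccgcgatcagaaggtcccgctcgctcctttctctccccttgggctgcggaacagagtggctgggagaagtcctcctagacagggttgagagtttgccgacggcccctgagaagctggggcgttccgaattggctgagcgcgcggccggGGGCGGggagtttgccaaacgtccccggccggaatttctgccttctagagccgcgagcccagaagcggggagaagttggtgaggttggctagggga
MAN2A1: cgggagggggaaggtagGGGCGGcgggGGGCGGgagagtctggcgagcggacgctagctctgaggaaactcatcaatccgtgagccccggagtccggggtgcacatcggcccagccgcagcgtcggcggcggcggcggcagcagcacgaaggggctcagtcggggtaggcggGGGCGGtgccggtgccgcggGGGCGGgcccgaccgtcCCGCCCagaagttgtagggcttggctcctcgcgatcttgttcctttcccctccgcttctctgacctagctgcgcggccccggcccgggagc
MAN2A2: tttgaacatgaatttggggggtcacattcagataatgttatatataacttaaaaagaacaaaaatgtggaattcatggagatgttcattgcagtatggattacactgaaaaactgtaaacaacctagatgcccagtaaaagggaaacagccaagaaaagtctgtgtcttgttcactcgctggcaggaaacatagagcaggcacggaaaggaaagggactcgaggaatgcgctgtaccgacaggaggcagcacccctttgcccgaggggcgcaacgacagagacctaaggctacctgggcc
B4GALT1 holds 7 GC boxes, MAN2A1 5, MGAT5 1 and MAN2A2 0 in this window, and 45.0% of the 35116 promoter windows of the same length hold at least 1. In these 4 windows no GC box overlaps another. The MAN2A1 start lies 561 bases from the start of the gene in the deposited table. The E-box CACGTG, the ETS site CCGGAAGT and the cyclic AMP response element TGACGTCA, searched on both strands, are in none of the 4 (7.26%, 4.14% and 1.85% of all windows). Of the genes that were not called, MGAT4B has 3 GC boxes, MGAT2 1, and MGAT1 and FUT8 0. These counts too are for 1 window a gene, where MGAT1 has 6 starts and FUT8 3. A match describes letters and is not evidence of a site in use.

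In 2 of the 9 tested genes (B4GALT1 and MGAT5) every siUAP1 library was above every control library, as in 6.74% of all tested genes. In 8 of the 9, all but MGAT4A, siUAP1 was above control within all 3 numbers, as in 23.4% of all tested genes. The summed FPKM of the 10 genes was 136.5, 129 and 126 in siUAP1 libraries and 118, 111 and 113 in control libraries. Of that sum B4GALT1 took 18.1%, 19.7% and 18.45% in siUAP1 libraries and 15.4%, 16.1% and 16.5% in control libraries, and MGAT4B 26.3%, 26.6% and 24.6% in siUAP1 and 27.4%, 28.2% and 26.8% in control libraries. The 8 epithelial markers summed to 1340, 1419 and 1118 CPM in siUAP1 libraries and 867, 896 and 798 CPM in control libraries. Nearly all of these sums came from KRT7, KRT8 and KRT18, which rose (log2 fold changes 0.58, 0.78 and 0.50). PAX8 (0.55, adjusted p = 0.318) and WT1 (-0.20, adjusted p = 0.698) were not called, and 3 of the 8 epithelial markers had too few counts to be tested. PDGFRB, a mural and fibroblast receptor, also rose (0.95). Of the 4 smooth muscle and fibroblast markers 2 were tested, and the other tested one, ACTA2, was not called. DES had 2 counts over all libraries and DCN 0. The 4 summed to 26.75, 21.0 and 7.70 CPM in siUAP1 libraries and 13.1, 11.8 and 7.05 CPM in control libraries. The 4 mesenchymal markers summed to 4403, 4972 and 3874 CPM in siUAP1 libraries and 4038, 4853 and 4069 CPM in control libraries (1 rose, 2 fell). The 3 endothelial markers summed to 148, 132.5 and 172.5 CPM in siUAP1 and 142, 131 and 169 CPM in control libraries (0 of 2 tested called). Nearly all of the endothelial sums came from CDH5. The part of any marker list in the rises of the branching enzymes was not tested.

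Genes around these enzymes were looked at in lists chosen by function. Of 67 tested genes in 8 such lists, 7 rose and 5 fell, where 9.07% of all tested genes rose and 7.14% fell. The 5 include UAP1, the target of the siRNAs, whose fall was set by the design. The groups alone gave 1 call (UAP1). Of the 12 called with the block, 7 were called without pair 1, 6 without pair 2 and 2 without pair 3 (UAP1 and MGAT5B). DESeq2 with the block called 4 of the 12 (UAP1, MGAT5B, CHST2 and GNPNAT1). It did not call B4GAT1 (adjusted p = 0.0718), MAN1A2 (0.102), ST3GAL6 (0.104), COG2 (0.108), B4GALT5 (0.117), ST6GAL2 (0.196) or SLC35C1 (0.224).

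**Figure D4:**
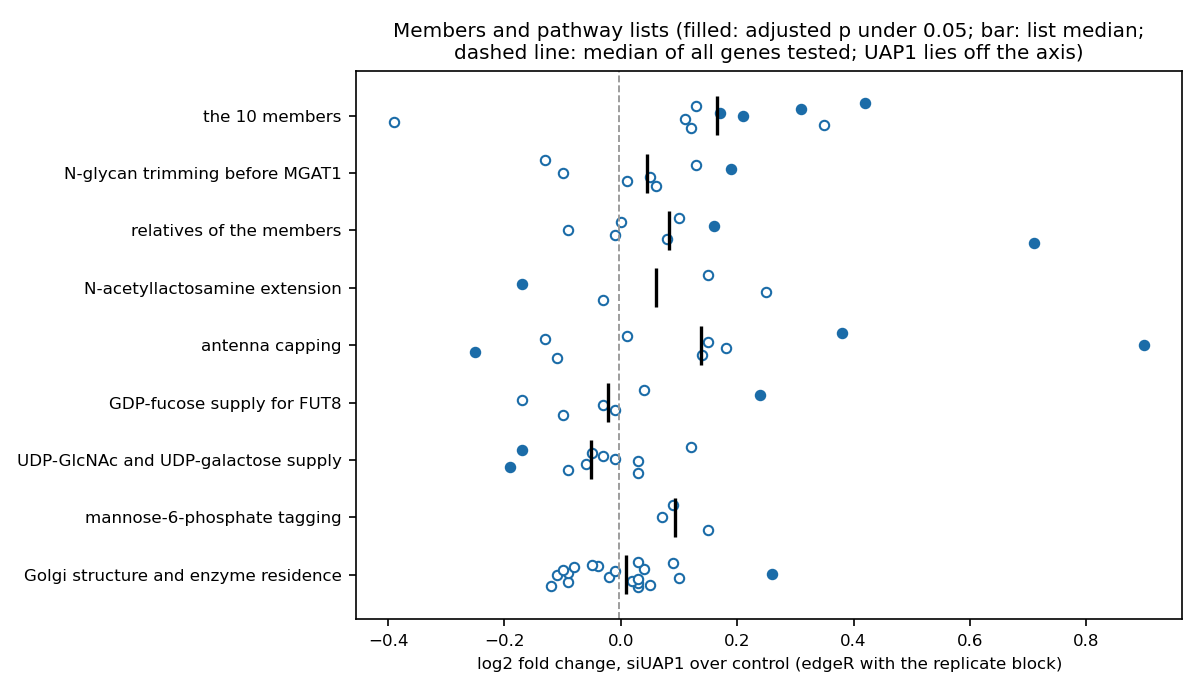
Log2 fold change of siUAP1 over control (edgeR with the replicate block) of each tested gene in the branching set and 8 lists around it, with bars at list medians and a dashed line at the median of all tested genes. MGAT5B and ST6GAL2 lie farthest right among the called genes, and UAP1 lies off the axis at -4.02.

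Among relatives of the 10 genes, 2 of 7 tested rose and 0 fell (median 0.0827). MGAT5B, a paralogue of MGAT5 best known for branching O-mannose glycans in brain, rose 1.64-fold. It was at 42.1, 45.9 and 47.4 CPM in siUAP1 libraries, against 23.6, 29.5 and 29.6 CPM in control libraries. The groups stood apart (log2 fold change 0.71, SE 0.069, adjusted p = 3.26e-08, and 0.101 for the groups alone). B4GALT5, a galactosyltransferase known for lactosylceramide synthesis, rose slightly (0.16, SE 0.0488, adjusted p = 0.0249, not called without pair 2 or 3). The other tested B4GALT genes were not called, and MGAT4C and MGAT4D had too few counts to be tested.

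Of 7 tested genes that trim the glycan before MGAT1 acts, 1 rose and 0 fell (median 0.0456). It was MAN1A2, a Golgi mannosidase I, at 102, 112 and 93.6 CPM in siUAP1 libraries and 98.6, 89.2 and 81.2 CPM in control libraries (0.19, SE 0.0548, adjusted p = 0.015). The call ended without pair 2 (0.259) or pair 3 (0.160). The glucosidase subunit gene GANAB was at 0.01 (SE 0.0457, adjusted p = 0.926).

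Of 4 tested genes in the list of N-acetyllactosamine extension, 0 rose and 1 fell (median 0.0604). The gene that fell was B4GAT1, formerly classed with the extending enzymes and known for priming the O-mannose glycan of dystroglycan (log2 fold change -0.17, SE 0.0495, adjusted p = 0.019), and it was not called without pair 1, 2 or 3. The extending enzyme gene B3GNT2 was not called (-0.03, SE 0.0791). Of 9 tested genes that cap antennae, 2 rose and 1 fell (median 0.138). CHST2, a GlcNAc sulfotransferase, was at 32.0, 27.7 and 35.45 CPM in siUAP1 and 29.5, 20.8 and 23.3 CPM in control libraries (0.38, SE 0.0843, adjusted p = 0.00232, and 0.147 without pair 3). The sialyltransferase gene ST6GAL2, little expressed, rose (0.90, SE 0.274, adjusted p = 0.0242, and 0.383 without pair 2 or 0.0658 without pair 3), with 61, 116 and 25 counts in siUAP1 libraries and 37, 45 and 15 in control libraries. ST3GAL6, a sialyltransferase of the antennae, fell (-0.25, SE 0.0698, adjusted p = 0.0138, not called without pair 2 or 3). It overlaps DCBLD2 on the opposite strand (902 CPM on average) over 235 bases, so its count is uncertain.

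Among genes that supply the sugar donors, UAP1 was the target of the siRNAs, so its fall was set by the design. Of 11 tested genes for UDP-GlcNAc and UDP-galactose, UAP1 included, 0 rose, 3 fell and 8 were not called (median -0.0515), where 7.14% of all tested genes fell. The 3 included UAP1 and GNPNAT1 (-0.19, SE 0.0502, adjusted p = 0.00985), the acetyltransferase upstream of UAP1. GNPNAT1 was at 86.3, 99.9 and 106 CPM in siUAP1 libraries and 104, 109.6 and 119 CPM in control libraries, lower within each number though the groups overlapped. The GNPNAT1 call ended without pair 1 (adjusted p = 0.0554) or pair 3 (0.0892). GNPNAT1 shares 35.6% of its exonic bases with an antisense gene at 0 counts. SLC35A3, a Golgi transporter of UDP-GlcNAc, was at 28.1, 33.1 and 37.8 CPM in siUAP1 libraries and 28.9, 31.2 and 39.9 CPM in control libraries (-0.01, SE 0.0703, adjusted p = 0.951). Of 6 genes supplying GDP-fucose, the donor of FUT8, 1 rose and 0 fell (median -0.0224). It was SLC35C1, the Golgi GDP-fucose transporter, at 28.3, 29.6 and 28.5 CPM in siUAP1 and 22.4, 25.4 and 25.6 CPM in control libraries (0.24, SE 0.0765, adjusted p = 0.0355), and it was not called without pair 1, 2 or 3.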

How the data were processed

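RNA of 3 siUAP1 and 3 control ES2 libraries was compared, grouped by sample title. The authors deposited raw counts per gene and FPKM, made from these counts with the deposited gene length in bases. Denominators worked back from FPKM came to 0.988 to 1.03 times each library's total. Per the submitters' processing notes the tools and build include GRCh38.p12 and DESeq2. The aligner, counter and strand setting are unstated there and in the labels. Coordinates are those of the deposited table, and 58724 of its 58735 genes match GENCODE release 29 in position, from which shared exonic bases were counted.

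The main test was edgeR 4.0.16 (R 4.3.3) on counts: TMM scaling, filterByExpr with a minimum count of 10 (15768 genes kept), a quasi-likelihood fit on the group, Benjamini-Hochberg adjustment and a threshold of 0.05. The fit with the replicate number as a block was an alternative. Deviations from group means (log CPM, prior count 2) correlated at 0.552, 0.454 and 0.584 for libraries of the same number, all past the limit of 0.1 set for accepting the pairing, so the blocked values are given. Within a group, libraries differed by 23.9 to 41.3 chi-square per degree of freedom (genes of at least 20 counts), so none was a repeat. Other alternatives were RLE scaling, library totals, other filters, leaving out libraries or pairs, DESeq2 1.42.0, and limma 3.58.1 (voom, or log2(FPKM + 1) and log2(FPKM + 0.1), where fold changes are on that scale). The fits were also run on simulated counts with 200 changed genes. Those counts carried a replicate-number effect taken from these data, so they cannot decide between fits with and without the block. SE is the log2 fold change divided by the root of F.

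The 10 members and the lists were chosen with earlier results of these data known. All members are named, and from each list the genes called with the block (at most 4) or, with none, the uncalled gene of smallest p. In addition, GANAB, B3GNT2 and SLC35A3 were added with their values already seen. One gene of the lists that this rule names is not reported here.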

Additional observations from a re-analysis of the deposited data

How the results depend on the processing

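None of 200 recomputed values of single members changed direction: 176 kept their side of the threshold and 24 passed it, all in fits with the block or, for B4GALT1, in DESeq2. The count of called members was 0 in every edgeR and limma fit of the groups alone, including those without 1 library, and 1 with DESeq2. With the replicate block it was 4, also with RLE scaling or library totals, 2 with DESeq2, and 2 to 4 without 1 pair. Genes called overall numbered 17, 273 with no filter beyond 1 count, 165 with DESeq2, 2 and 3 with log2(FPKM + 1) and log2(FPKM + 0.1), 1 with log2(FPKM + 1) and no filter, and 1 to 3 without 1 library. With the replicate block they numbered 2556, 2539 with RLE scaling, 2587 with library totals, 1296 with DESeq2, and 1195 to 2204 without 1 pair (1987 without pair 2). List genes called numbered 1, 2 with no filter or with DESeq2, and with the replicate block 12, also with RLE scaling or library totals, 4 with DESeq2, and 2 to 8 without 1 pair (6 without pair 2). The cause of these differences was not tested. The ratios kept their sign in the alternatives run, between -0.24 and -0.02 for MAN2A1 to MAN2A2 and between -0.69 and -0.28 for MGAT4A to MGAT4B when 1 library was left out. The ratio of MGAT3 to MGAT5 was not computed, since MGAT3 had 0 counts in 3 libraries. Low counts limit what can be said of MGAT2, MGAT3 and MGAT4A, which had at most 65 counts in a library. For MGAT2 the part of its shared exonic bases in the low count was not tested.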

Other observations

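Genes that hold the Golgi and its enzymes in place mostly lay near 0. Of 20 tested genes of Golgi structure and enzyme residence, 1 rose and 0 fell (median 0.00886 on the log2 scale, edgeR with the replicate block, where 16.2% of all tested genes were called). It was COG2, a subunit of the complex that tethers vesicles within the Golgi, at 37.8, 33.0 and 41.3 CPM in siUAP1 libraries and 30.1, 29.5 and 34.1 CPM in control libraries (0.26, SE 0.0694, adjusted p = 0.0118). The call ended without pair 1 (0.0508), without pair 3 (0.126) or with DESeq2 and the block (0.108). The other 7 COG subunits were not called. Of 3 genes that tag lysosomal enzymes with mannose-6-phosphate, a fate that competes with complex glycans, none was called. Among them GNPTAB, the catalytic subunit of the phosphotransferase, was at 0.15 (SE 0.0561, adjusted p = 0.0761).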
